A study of Mus musculus with 12 samples.

Results

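The 8 genes described here belong to the complement system: the C1q subunits C1qa, C1qb and C1qc, the components C3, Cfb and Cfp, and the receptors C3ar1 and C5ar1. They were taken by name, as 8 of 54232 genes in a table of read counts, after Ensembl gene IDs had been matched to mouse symbols. All 8 were among the 16281 genes tested. The table covered 12 libraries of poly(A) RNA from bone marrow derived macrophages (BMDMs) of wild-type C57BL/6 mice, cultured for 5 days and then treated for 24 h. The 6 groups of 2 libraries were untreated cells (NS, libraries SJ1 and SJ2), cells given tumor-conditioned medium (TCM) of NB9464 (SJ3 and SJ4) or NBT3L (SJ5 and SJ6), cells given 500 nM R788 without TCM (SJ7 and SJ8), and cells given R788 with NB9464 TCM (SJ9 and SJ10) or NBT3L TCM (SJ11 and SJ12). NB9464 is a mouse neuroblastoma line with amplified MYCN, and NBT3L is a neuroblastoma line without it. R788, or fostamatinib, inhibits the tyrosine kinase Syk, which carries signals from Fc receptors and integrins in macrophages. The study asked how neuroblastoma factors change macrophages and what Syk inhibition does to that change.

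These were cultured BMDMs, so no tumor was present. NB9464 TCM was collected over 48 h in medium without serum. How NBT3L TCM was made, what medium the cells without TCM received, and which vehicle went with R788 were not stated in the sources used here, so a difference between TCM and no TCM also holds any difference in base medium and serum. Nothing in the labels says whether the 2 libraries of a group came from separate cultures or animals. The p values below therefore measure the spread between these libraries, which may be technical.

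Complement is a cascade of plasma and locally made proteins that tags targets and calls in phagocytes. In the classical pathway, C1q binds antibody or other surface ligands and, through the proteases C1r and C1s, leads to cleavage of C3. The alternative pathway amplifies that step: factor B, the product of Cfb, joins C3b to form a convertase, which properdin, the product of Cfp, stabilizes. Cleavage of C3 and C5 frees the peptides C3a and C5a, whose receptors are encoded by C3ar1 and C5ar1. Most C3 in blood comes from the liver, whereas C1q is made largely by macrophages and related myeloid cells.

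The 3 C1q genes lie side by side on the minus strand of chromosome 4 in GRCm38 (mm10), in the order C1qb (ENSMUSG00000036905, 136880129 to 136886187), C1qc (ENSMUSG00000036896, 136889804 to 136893065) and C1qa (ENSMUSG00000036887, 136895917 to 136898803). Together they span 18675 bases, with gaps of 3616 and 2851 bases between neighbours, and none shared exonic bases with another gene. C3 (ENSMUSG00000024164) lies on chromosome 17 at 57203970 to 57228136, C3ar1 (ENSMUSG00000040552) on chromosome 6 at 122847138 to 122856161, and C5ar1 (ENSMUSG00000049130) on chromosome 7 at 16246743 to 16259540. Cfp (ENSMUSG00000001128) lies on chromosome X at 20925454 to 20931555. Cfb (ENSMUSG00000090231) lies on chromosome 17 at 34856374 to 34862518, and 2246 of its 2825 exonic bases are also annotated to the readthrough transcript Gm20547 on the same strand. Gm20547 had 0 counts in all 12 libraries and C2, 85 bases away, had at most 44, but how shared reads were assigned is not known, so the level of Cfb is uncertain.

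Promoter windows from RefSeq (GRCm38.p6) were available for 6 of the 8 genes. 4 are shown, because C1qb and C1qc are neighbours that moved together below whereas C3 and C3ar1 moved in opposite directions under TCM. Each is the sequence upstream of both the RefSeq and the GENCODE start, on the minus strand and 5′ to 3′, with motif matches on either strand in capitals. C1qb is chr4:136886201-136886450, C1qc is chr4:136893066-136893164, C3 is chr17:57228137-57228386 and C3ar1 is chr6:122856162-122856407.
C1qb: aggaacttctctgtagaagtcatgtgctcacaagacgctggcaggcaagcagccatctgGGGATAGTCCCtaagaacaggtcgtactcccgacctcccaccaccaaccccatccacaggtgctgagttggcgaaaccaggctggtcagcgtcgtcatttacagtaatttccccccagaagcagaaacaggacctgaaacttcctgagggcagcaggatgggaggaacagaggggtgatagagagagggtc
C1qc: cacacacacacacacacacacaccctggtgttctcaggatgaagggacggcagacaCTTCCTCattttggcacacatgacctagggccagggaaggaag
C3: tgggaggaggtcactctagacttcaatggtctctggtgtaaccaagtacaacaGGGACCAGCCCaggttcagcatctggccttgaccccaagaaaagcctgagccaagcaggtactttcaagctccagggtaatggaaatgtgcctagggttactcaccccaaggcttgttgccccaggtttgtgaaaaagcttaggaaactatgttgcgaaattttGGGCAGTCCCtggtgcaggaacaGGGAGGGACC
C3ar1: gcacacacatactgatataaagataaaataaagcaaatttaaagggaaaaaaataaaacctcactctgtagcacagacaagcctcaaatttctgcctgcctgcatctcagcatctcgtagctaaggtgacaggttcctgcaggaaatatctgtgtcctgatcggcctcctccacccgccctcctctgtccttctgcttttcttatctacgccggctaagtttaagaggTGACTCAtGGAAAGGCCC
The motifs searched were an ETS or PU.1 motif (GAGGAAG), an IRF motif (GAAA, any 2 bases, GAAA), a GAS motif (TTC, any 3 bases, GAA), an NF-kB motif (GGG, any 5 bases, CC) and an AP-1 motif (TGANTCA), on both strands. In the windows of 250 bases before the RefSeq start, the ETS motif matched once, in C1qc, and the AP-1 motif once, in C3ar1. The NF-kB motif matched 4 times in C3, 2 of them overlapping, 2 overlapping times each in C1qb and C1qc, and once each in Cfp and C3ar1, and C5ar1 had no match to any motif. The C1qc matches to the NF-kB motif lie downstream of the GENCODE start and are not in the printed stretch. Of 32817 windows of this length in the table, 10.6% held the ETS motif, 2.97% the IRF motif, 7.01% the GAS motif, 45.8% the NF-kB motif and 6.75% the AP-1 motif.

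Total counts were between 44977847 and 56449685 per library. Fewer genes were detected in SJ8 (R788), 16149 against 17275 to 18343 in the others, although its total was the largest, and the R788 pair differed more than any other pair, with a chi-square per degree of freedom of 37.63 against 7.72 to 16.74. The 6 macrophage markers, among them Adgre1 and Csf1r, were all tested and summed to between 269400 and 599400 normalized counts. Neuroblastoma markers, 5 of 8 tested and 2 at 0 in all libraries, summed to 3.64 to 41.5 without TCM and 74.2 to 144 with it. Dendritic cell markers, 3 of 4 tested and 1 at 0 throughout, summed to 25.4 to 89.0, and lymphocyte markers, 1 of 6 tested and 2 at 0, to 1.99 to 30.0. Granulocyte markers, 5 of 6 tested, summed to 3875 to 4329 in NS, 2551 to 3819 with R788, 8202 to 8357 and 10130 to 10340 with NB9464 and NBT3L TCM alone, and 6796 to 7499 and 7356 to 7638 with these and R788. S100a8 alone carried the higher sum with TCM, at a mean of 1265 normalized counts in NS against 6043 and 7978, while S100a9 had 2482 against 2052 and 1930. Fibroblast and stromal markers, 6 of 6 tested, summed to 1308 to 1669 in NS, 1581 to 2166 with TCM alone and 2252 to 3550 in the groups with R788. Their part in the results below was not tested. In RNA of whole cultures, fewer cells of a type and less RNA per cell cannot be told apart.

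The C1q subunits were among the most abundant of the 8 genes in NS and fell steeply with either TCM. Levels between genes are compared per length, as TPM, which scale counts by gene length and then to a fixed library sum. In NS, C1qb had 2380 ± 121 TPM (SD, n = 2), C1qc 929 ± 74.2 and C1qa 815 ± 35.6. Cfp, at 1289 ± 36.3 TPM, lay between C1qb and C1qc. The receptors followed, with 545 ± 54.2 TPM for C3ar1 and 492 ± 16.2 for C5ar1. C3 had 128 ± 6.93 TPM and Cfb 1.27 ± 0.0344, the lowest level of the 8. In NB9464 TCM the order changed: Cfp led with 1371 ± 5.26 TPM, C1qb had 524 ± 14.6 and C3 463 ± 23.5, and C1qc and C1qa had fallen to 175 ± 1.49 and 124 ± 4.08.

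**Figure D1:**
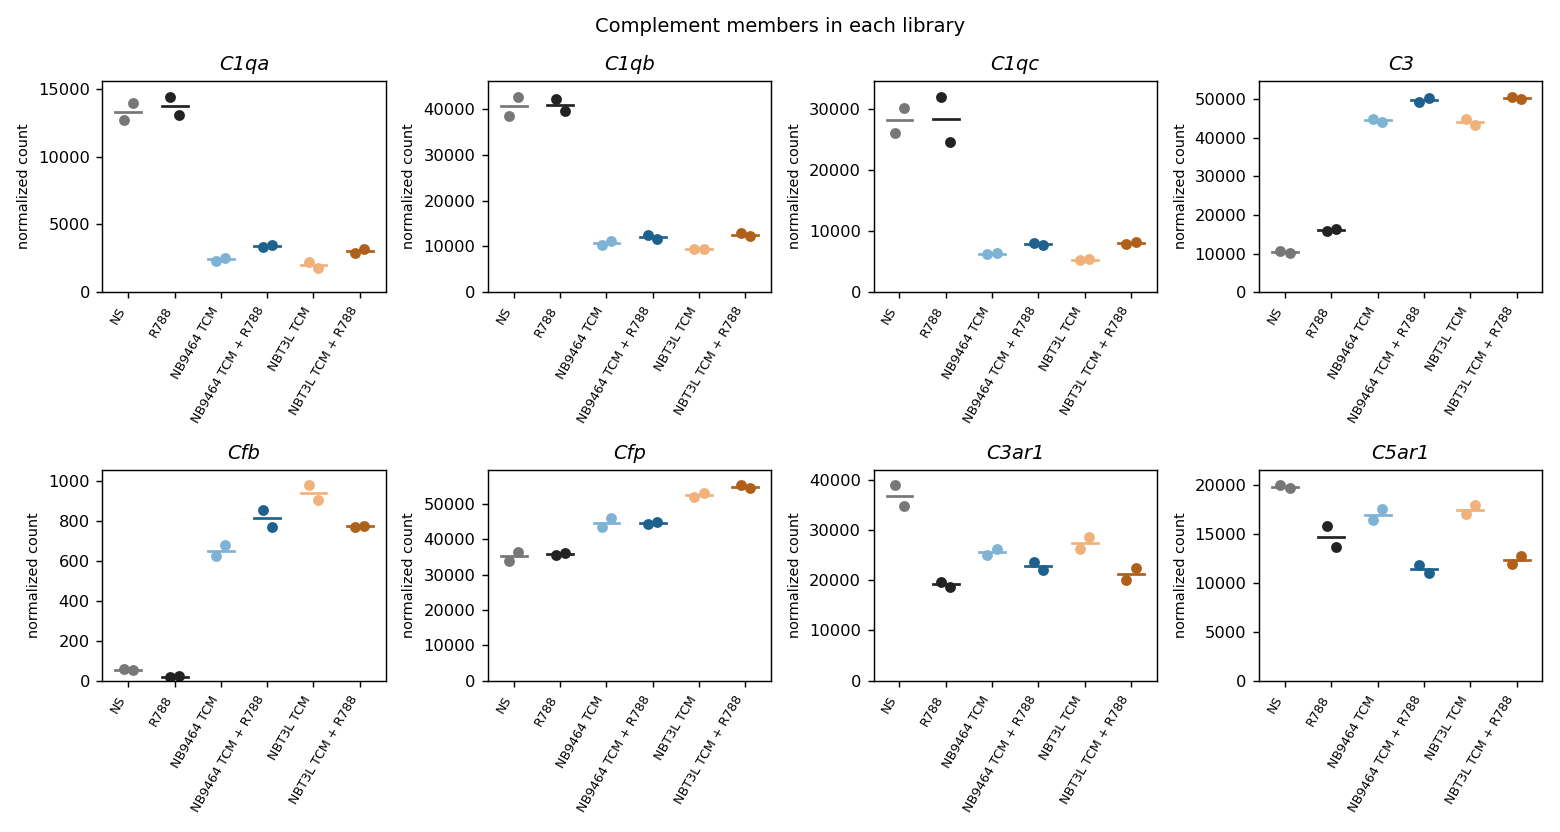
Normalized counts (DESeq2 size factors, linear axis from 0) of each of the 8 complement genes in the 12 libraries, by group. Points are libraries and lines are means of 2 libraries. The 3 C1q genes are low in all 8 libraries with TCM, C3 and Cfb are high in them, and C3ar1 is highest in NS.

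The first comparison asked what TCM did to untreated BMDMs. Counts were divided by DESeq2 size factors, and log2 fold changes are from DESeq2, fitted over all 12 libraries, with Benjamini-Hochberg adjusted p values over the genes tested. All 8 genes were called at an adjusted p under 0.05 with each TCM, 3 higher and 5 lower. Of all genes tested, 34.1% were called with NB9464 TCM (17.2% higher and 16.9% lower) and 35.3% with NBT3L TCM (18.0% higher and 17.3% lower). The median log2 fold change of the 8 was -0.37 with NB9464 TCM and -0.31 with NBT3L TCM, and that of all genes tested 0.02 and 0.00. Both comparisons share the NS libraries. Of the 5 granulocyte markers tested, 1 (S100a8) was called higher with either TCM, 2 were called lower with NB9464 TCM and 3 with NBT3L TCM. Among the 5 neuroblastoma markers tested, 3 were called higher with NB9464 TCM and 4 with NBT3L TCM, and none lower. Their counts were low, with a highest group mean of 63.2 normalized counts (Gata3), and their source was not tested. Of the 6 macrophage markers, 3 were called higher and 2 lower with each TCM. Adgre1, which encodes F4/80, carried the higher macrophage sum, at 73740 normalized counts in NS against 221600 and 290500, whereas Cd68 had 58990 against 37660 and 45380 and Csf1r 95440 against 90720 and 102400.

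C1qa, which encodes the A chain of C1q, had 12690 and 13920 normalized counts in NS, 2300 and 2537 in NB9464 TCM, and 2202 and 1791 in NBT3L TCM. All 4 TCM libraries lay far below both NS libraries. The log2 fold change was -2.46 ± 0.10 (SE) with NB9464 TCM (DESeq2 adjusted p = 1.26e-139) and -2.74 ± 0.10 with NBT3L TCM (DESeq2 adjusted p = 2.29e-169), so that 18.2% and 15.0% of the NS mean remained. C1qb, the B chain, had 38590 and 42780 in NS, 10200 and 11170 in NB9464 TCM, and 9337 and 9497 in NBT3L TCM. Its groups with and without TCM did not overlap either, and it fell by 1.93 ± 0.07 with NB9464 TCM (DESeq2 adjusted p = 5.06e-174) and by 2.11 ± 0.07 with NBT3L TCM (DESeq2 adjusted p = 6.61e-207) on the log2 scale. C1qc, the C chain, had 26160 and 30220 in NS, 6192 and 6439 in NB9464 TCM, and 5270 and 5402 in NBT3L TCM. It fell by 2.16 ± 0.10 and 2.40 ± 0.10 on the log2 scale (DESeq2 adjusted p = 2.79e-111 and 1.14e-136). Among called genes with a mean of at least 100 normalized counts, 72 with NB9464 TCM and 44 with NBT3L TCM fell more than C1qa. Such called genes numbered 5022 and 5238, counting those that rose as well as those that fell. No C1q call was lost when any 1 library was left out.

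The 3 subunits did not fall by quite the same factor. C1qa made up 19.6% and 19.9% of the summed C1q level (TPM) in the NS libraries and 20.03% and 20.32% in the R788 libraries. In TCM alone its share was 15.0% and 15.2% with NB9464 and 15.8% and 13.0% with NBT3L. The share of C1qb was higher, at 63.4% to 65.9% in the 4 libraries with TCM alone against 57.5% and 57.9% in NS, and that of C1qc was lower, at 20.3% to 21.7% against 22.1% and 22.9% in NS. The summed C1q level was 4124 ± 231 TPM in NS, against 823 ± 17.3 with NB9464 TCM and 647 ± 6.65 with NBT3L TCM. These shares are given as a description, with no test of the difference between subunits.

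**Figure D2:**
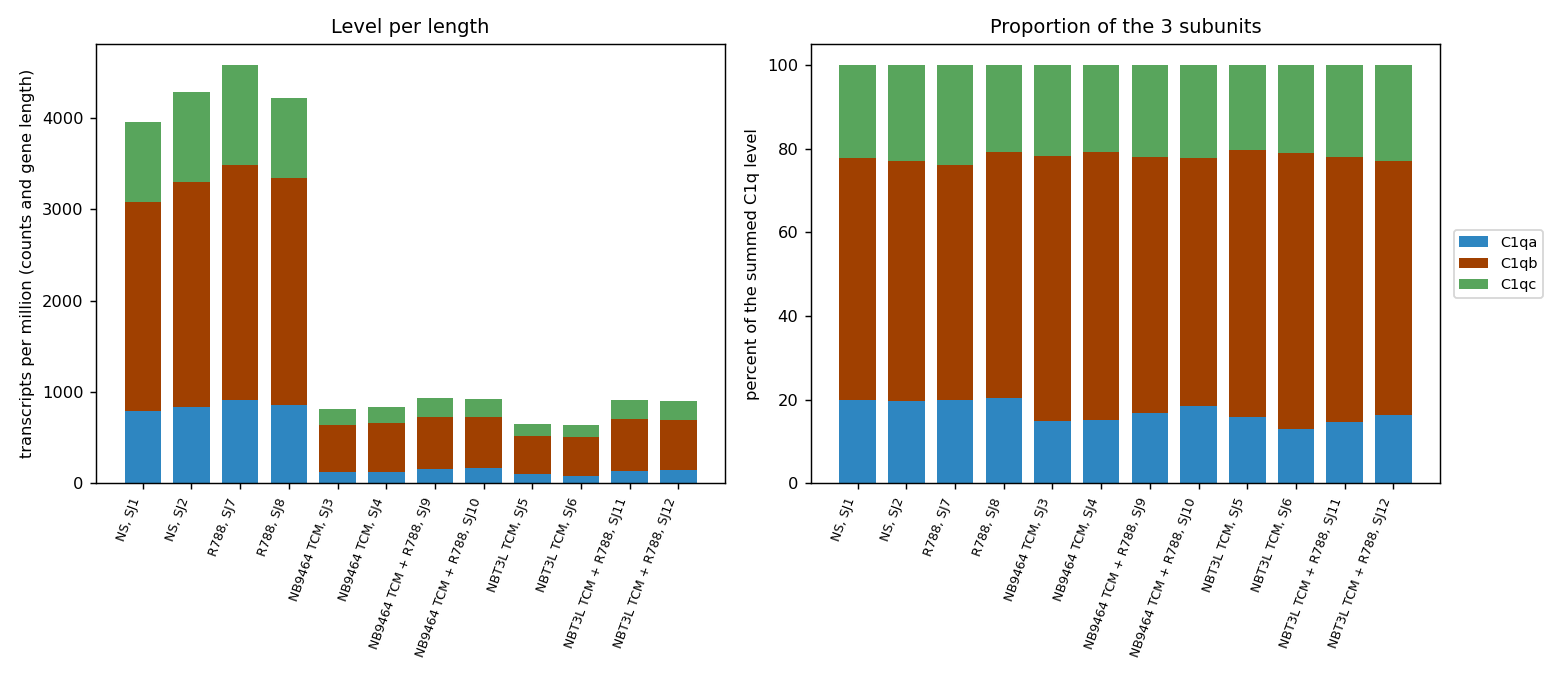
Left, summed level of C1qa, C1qb and C1qc in TPM for each library (linear axis from 0). Right, the percent of that sum given by each subunit. The sum lies between 3961 and 4582 in the 4 libraries without TCM and between 642 and 937 in the 8 with TCM, and the C1qa share is lower in the libraries with TCM.

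C3 and Cfb moved opposite to C1q. C3, the central component that all complement pathways cleave, had 10590 and 10120 normalized counts in NS, 44970 and 44050 in NB9464 TCM, and 44960 and 43310 in NBT3L TCM. Every TCM library lay far above both NS libraries. C3 rose 4.30-fold with NB9464 TCM (log2 fold change 2.10 ± 0.05) and 4.26-fold with NBT3L TCM (2.09 ± 0.05), with adjusted p values so small that DESeq2 returned 0. In TPM the rise was smaller, from 128 ± 6.93 (SD) in NS to 463 ± 23.5 with NB9464 TCM and 416 ± 11.4 with NBT3L TCM. Cfb, which encodes the protease part of the alternative convertase, had 56.4 and 55.9 normalized counts in NS, 625 and 676 in NB9464 TCM, and 976.5 and 903.5 in NBT3L TCM. It was low in NS and more than 10 times higher in every TCM library, with log2 fold changes of 3.53 ± 0.21 (DESeq2 adjusted p = 9.89e-61) and 4.07 ± 0.21 (DESeq2 adjusted p = 1.23e-80). Despite its larger fold, Cfb reached only 16.1 TPM in NBT3L TCM, against 416 TPM for C3.

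Cfp, which encodes properdin, changed less. It had 33890 and 36390 normalized counts in NS, 43320 and 45840 in NB9464 TCM, and 51820 and 53150 in NBT3L TCM. The 3 groups did not overlap. Its log2 fold change was 0.34 ± 0.05 with NB9464 TCM (DESeq2 adjusted p = 3.96e-11) and 0.58 ± 0.05 with NBT3L TCM (DESeq2 adjusted p = 2.90e-30). With library totals as the scaling these values were 0.21 and 0.35, still called. In TPM the rise was smaller, from 1289 ± 36.3 (SD) in NS to 1371 ± 5.26 with NB9464 TCM and 1467 ± 25.2 with NBT3L TCM.

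The receptors for C3a and C5a were lower with TCM, by less than 1.5-fold in normalized counts. In TPM the falls were larger. C3ar1 had 545 ± 54.2 TPM (SD) in NS, 317 ± 2.23 with NB9464 TCM and 308 ± 18.5 with NBT3L TCM. C5ar1 had 492 ± 16.2, 353 ± 3.92 and 331 ± 11.7. With library totals as scaling, C3ar1 gave -0.66 with each TCM, and C5ar1 -0.35 and -0.41 (DESeq2 adjusted p = 2.18e-06 and 1.76e-08). C3ar1 had 38840 and 34800 normalized counts in NS, 25040 and 26100 in NB9464 TCM, and 26150 and 28500 in NBT3L TCM. All TCM libraries lay below both NS libraries, and C3ar1 fell by 0.53 ± 0.07 (DESeq2 adjusted p = 2.88e-12) and by 0.43 ± 0.07 (DESeq2 adjusted p = 1.78e-08) on the log2 scale. C5ar1 had 20000 and 19700 in NS, 16440 and 17580 in NB9464 TCM, and 17070 and 17970 in NBT3L TCM. Its groups were also apart, but the differences by size factors were small: -0.22 ± 0.07 (DESeq2 adjusted p = 0.00776) and -0.18 ± 0.07 (DESeq2 adjusted p = 0.0377). The C5ar1 call with NB9464 TCM was lost without SJ1 (DESeq2 adjusted p = 0.0606) or SJ3 (0.122). With NBT3L TCM it was lost without SJ1 (0.156), SJ2 (0.0891), SJ5 (0.259) or SJ6 (0.0559).

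**Figure D3:**
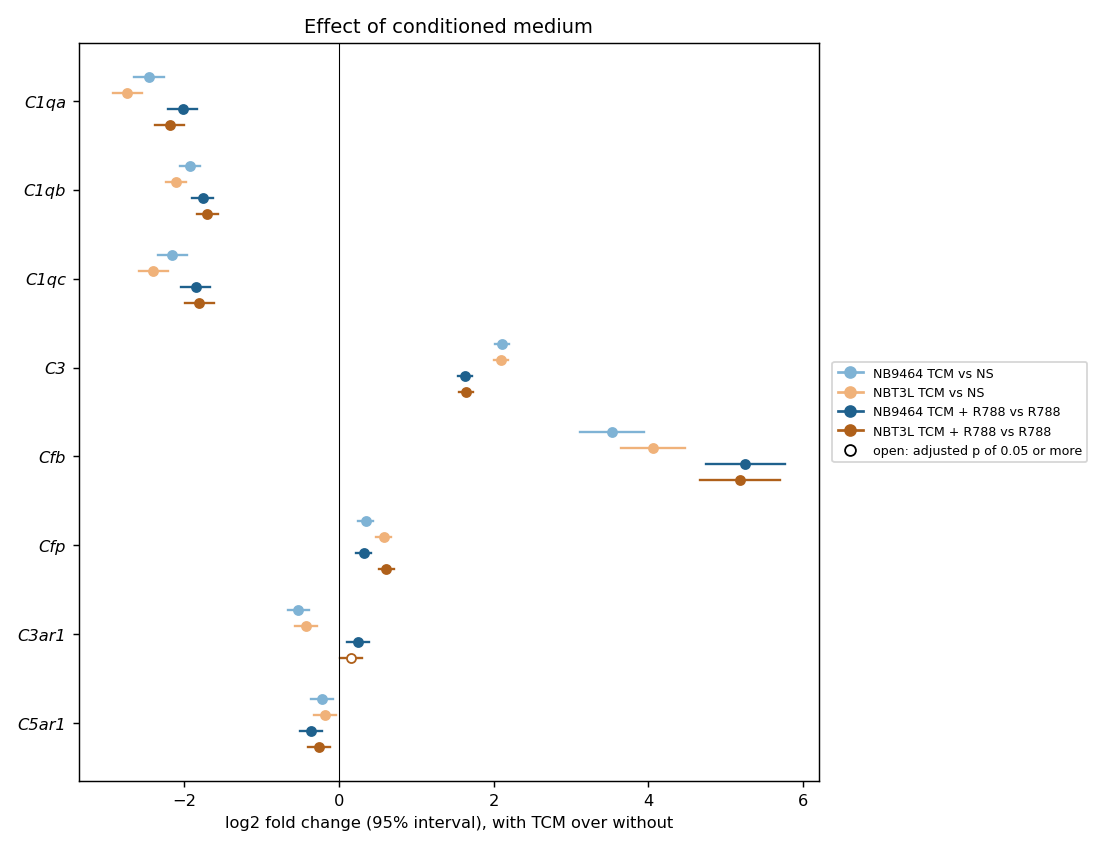
DESeq2 log2 fold changes of the 8 genes with each TCM, without R788 (over NS) and with R788 (over R788 alone), with 95% intervals. Filled points have an adjusted p under 0.05. C1q genes lie between -2.74 and -1.70, C3 and Cfb between 1.63 and 5.26, and C3ar1 changes sign between the settings without and with R788 under this scaling, but with NBT3L TCM not when scaled by library totals (-0.13). In TPM, which are not drawn, C3ar1 with R788 is lower with either TCM than without.

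The media of the MYCN-amplified and the non-amplified line were compared directly. Without R788, 3 of the 8 were called, with NB9464 TCM above NBT3L TCM for 1 and below it for 2, against 9.4% of all genes tested (3.69% higher and 5.72% lower). The 3 became 1 without SJ4 or SJ6 and 5 without SJ7 or SJ8. Cfp was lower in NB9464 TCM than in NBT3L TCM by 0.24 ± 0.05 on the log2 scale (DESeq2 adjusted p = 4.73e-05), and this call held when each library was left out. Cfb was lower by 0.53 ± 0.17 (DESeq2 adjusted p = 0.0182), but not called without SJ3 (0.247), SJ4 (0.088), SJ5 (0.276) or SJ6 (0.129). C1qa was higher by 0.28 ± 0.10 (DESeq2 adjusted p = 0.0435). The call of C1qa was lost in 9 of 12 fits that left out 1 library, whose adjusted p reached 0.66 without SJ6, where the log2 fold change was 0.13, and without SJ5 it was 0.43. C1qb and C1qc gave 0.18 ± 0.07 (DESeq2 adjusted p = 0.0592) and 0.24 ± 0.10 (0.0782), with 95% intervals of 0.05 to 0.32 and 0.05 to 0.43. C1qb was called without SJ1 (DESeq2 adjusted p = 0.0496), SJ3 (0.0368), SJ7 (0.0167) or SJ8 (0.019), and C1qc without SJ7 (0.00156) or SJ8 (0.0016). C3 gave 0.01 with an interval of -0.08 to 0.10, C3ar1 -0.10 with -0.24 to 0.05, and C5ar1 -0.04 with -0.19 to 0.10. The value for C3 depended on the scaling. Library totals gave 0.12 (DESeq2 adjusted p = 0.095), and in TPM the libraries were apart, at 479 and 446 against 424 and 408. With R788 in both media, 1 of the 8 genes was called, against 9.62% of all genes (3.53% higher and 6.09% lower): Cfp was again lower with NB9464 TCM, by 0.29 ± 0.05 (DESeq2 adjusted p = 1.41e-07).

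R788 was next compared with NS in the absence of TCM. Of the 8 genes, 4 were called, 1 higher and 3 lower, where 26.6% of all genes tested were called (11.6% higher and 15.0% lower). C3 had 15920 and 16280 normalized counts with R788 against 10590 and 10120 in NS, a rise of 0.64 ± 0.05 on the log2 scale (DESeq2 adjusted p = 1.15e-40). C3ar1 had 19690 and 18640 against 38840 and 34800, and fell by 0.94 ± 0.07 (DESeq2 adjusted p = 4.40e-37). C5ar1 had 15830 and 13680 against 20000 and 19700, and fell by 0.43 ± 0.07 (DESeq2 adjusted p = 5.07e-08). In all 3 genes the libraries of the groups were apart. Cfb had 20.9 and 21.6 normalized counts against 56.4 and 55.9, a log2 fold change of -1.402 ± 0.292 (DESeq2 adjusted p = 1.49e-05), from 59 to 60 raw counts in NS and 23 to 27 with R788. This Cfb call was lost when the dispersion was estimated from the NS and R788 libraries alone (DESeq2 adjusted p = 0.187).

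C1q did not show a change with R788 alone. C1qa had 14420 and 13050 normalized counts with R788, C1qb 42190 and 39650, and C1qc 32070 and 24680, each overlapping NS. The log2 fold changes were 0.05 (95% interval -0.14 to 0.23), 0.01 (-0.12 to 0.14) and 0.01 (-0.18 to 0.19). For C1qc the R788 libraries lay on either side of NS: without SJ7 the log2 fold change was -0.19 (DESeq2 adjusted p = 0.0392), and without SJ8 it was 0.18 (0.0474). Cfp gave 0.03 (-0.07 to 0.12), with 35620 and 35990 normalized counts.

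In TCM, R788 went with partly higher C1q. In NBT3L TCM, 6 of the 8 genes were called, 4 higher and 2 lower, against 12.6% of all genes (5.33% higher and 7.24% lower). C1qa had 2853 and 3159 normalized counts with R788 against 2202 and 1791 without, C1qb 12860 and 12290 against 9337 and 9497, and C1qc 7965 and 8222 against 5270 and 5402. Both R788 libraries lay above both libraries without it for each subunit. C1qa rose by 0.59 ± 0.10 (DESeq2 adjusted p = 9.29e-08), C1qb by 0.42 ± 0.07 (4.89e-08) and C1qc by 0.60 ± 0.10 (1.67e-08) on the log2 scale. The levels nevertheless stayed at 22.6%, 30.9% and 28.7% of the NS mean. In NB9464 TCM, 4 of the 8 genes were called, 3 higher and 1 lower, against 14.5% of all genes (5.79% higher and 8.7% lower). C1qa had 3303 and 3456 against 2300 and 2537 and rose by 0.48 ± 0.10 (DESeq2 adjusted p = 1.89e-05). C1qc had 8057 and 7645 against 6192 and 6439 and rose by 0.31 ± 0.10 (DESeq2 adjusted p = 0.0087), a call lost without SJ3 (0.0957) or SJ9 (0.133) and with edgeR (adjusted p = 0.0509). C1qb had 12570 and 11520 against 10200 and 11170 and gave 0.17 ± 0.07 (DESeq2 adjusted p = 0.0617), which was called without SJ1 (0.0448), SJ2 (0.0449), SJ4 (0.0254), SJ7 (0.0195), SJ8 (0.025) or SJ10 (0.0485). Summed stromal markers were also higher with R788 in these media, at 2252 to 2479 against 1581 to 1733 in NB9464 TCM. In NBT3L TCM they were 3501 to 3550 against 1938 to 2166. Summed macrophage markers rose too, without overlap, at 500900 to 503000 against 414200 to 414800 and 598200 to 599400 against 498800 to 501500. Adgre1 carried this rise, with means of 301200 against 221600 and 393900 against 290500. Single macrophage markers were mixed: DESeq2 put 3 up and 1 down for the first medium, 3 up and 2 down for the second. The part of either marker set in the C1q difference was not tested.

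C3 rose further with R788 in both TCMs by size factors, but by little. In TPM its libraries overlapped in NB9464 TCM, at 475 and 509 with R788 against 479 and 446 without. In NBT3L TCM they were apart, at 480 and 471 against 424 and 408. C3 had 49300 and 50350 normalized counts against 44970 and 44050 in NB9464 TCM (0.16 ± 0.05 on the log2 scale, DESeq2 adjusted p = 0.00324). In NBT3L TCM it had 50690 and 49980 against 44960 and 43310 (0.19 ± 0.05, DESeq2 adjusted p = 4.55e-04). The first call was lost without SJ4 (0.071) or SJ10 (0.112) and the second without SJ6 (0.0755) or SJ11 (0.0517). Cfb showed no called difference. With R788 it had 851 and 771 normalized counts in NB9464 TCM and 771 and 774 in NBT3L TCM, with log2 fold changes of 0.32 (95% interval -0.01 to 0.65) and -0.28 (-0.61 to 0.05). Cfp had 44370 and 44990 in NB9464 TCM with R788 and 55200 and 54360 in NBT3L TCM with R788, differing by 0.00 (-0.09 to 0.10) and 0.06 (-0.04 to 0.16) from the same media without it.

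C5ar1 was lower with R788 in both TCMs, and C3ar1 in NBT3L TCM. C5ar1, the main receptor of C5a, had 11860 and 11060 normalized counts against 16440 and 17580 in NB9464 TCM and fell by 0.57 ± 0.07 (DESeq2 adjusted p = 3.21e-13). In NBT3L TCM it had 11920 and 12770 against 17070 and 17970 and fell by 0.51 ± 0.07 (DESeq2 adjusted p = 1.90e-10). Together with the fall in R788 alone, C5ar1 was lower with R788 in all 3 media, without overlap between libraries in any. Summed granulocyte markers were also lower with R788 in both TCMs without overlap, at 6796 to 7499 against 8202 to 8357 and 7356 to 7638 against 10130 to 10340, although none of the 5 was called there, and their part in the C5ar1 difference was not tested. C3ar1 had 20100 and 22510 against 26150 and 28500 in NBT3L TCM and fell by 0.36 ± 0.07 (DESeq2 adjusted p = 1.56e-05). In NB9464 TCM it had 23630 and 21930 against 25040 and 26100, a difference of -0.17 ± 0.07 that was not called (DESeq2 adjusted p = 0.0937), but was without SJ7 (0.036) or SJ8 (0.0407), with library totals as scaling (0.0495) and with only the libraries compared (0.024).

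**Figure D4:**
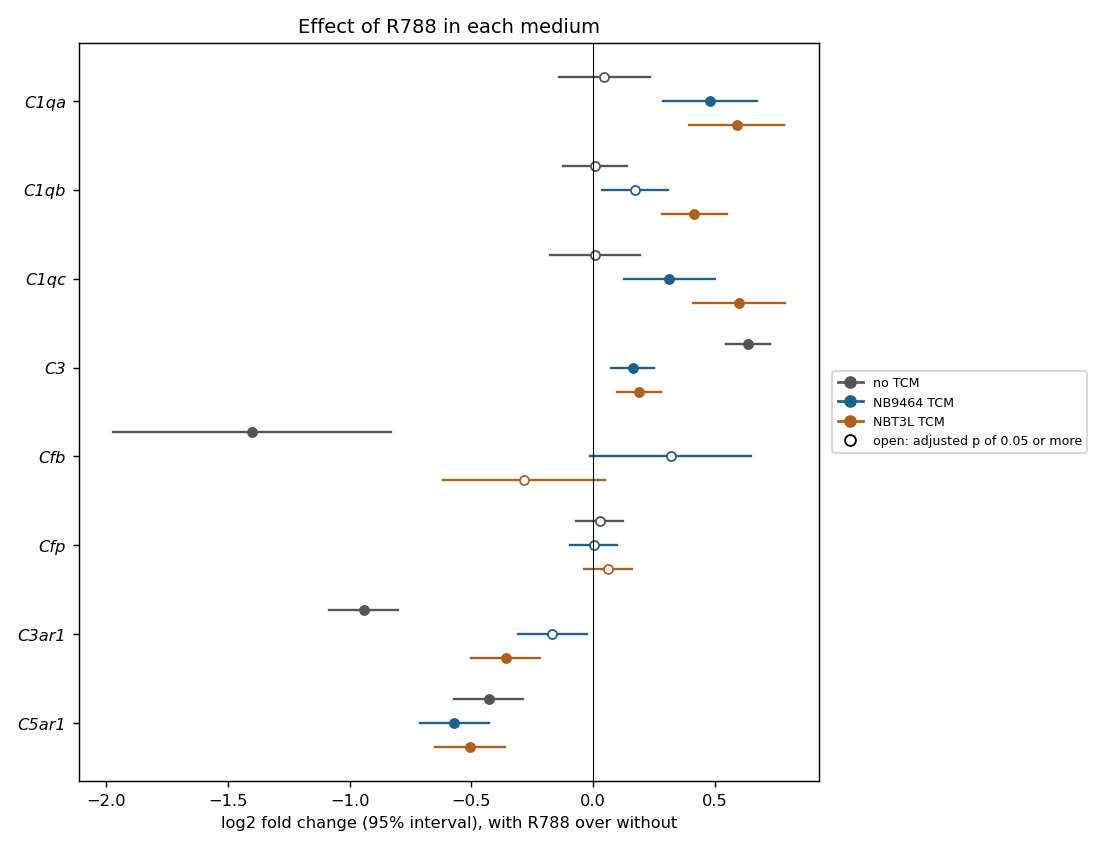
DESeq2 log2 fold changes of the 8 genes with R788 over without, for the 3 media (no TCM and either TCM), with 95% intervals. Filled points have an adjusted p under 0.05. C1q genes lie near 0 without TCM and between 0.17 and 0.60 with it. Cfb (-1.402 without TCM), C3ar1 and C3 each move more without TCM than with it, and C5ar1 lies between -0.57 and -0.43 in all 3 media.

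Interaction contrasts tested whether the R788 difference itself depended on the medium. With NBT3L TCM against no TCM, 6 of the 8 genes were called, 5 higher and 1 lower (10.1% of all genes, 5.17% higher and 4.96% lower). With NB9464 TCM against no TCM, 4 of the 8 were called, 3 higher and 1 lower (12.5%, 6.22% higher and 6.26% lower). For C3ar1, the R788 difference was smaller in TCM by 0.78 ± 0.10 with NB9464 TCM (DESeq2 adjusted p = 2.82e-12) and 0.58 ± 0.10 with NBT3L TCM (5.09e-07) on the log2 scale. For C3 the interaction was -0.47 ± 0.06 and -0.45 ± 0.06 (DESeq2 adjusted p = 2.47e-11 and 4.52e-10). For Cfb it was 1.72 ± 0.34 and 1.12 ± 0.34 (DESeq2 adjusted p = 9.81e-06 and 0.0107), the second lost without SJ6 (0.0552) and with counts divided by 2 (0.0652), the setting for mates counted separately. For C1qa it was 0.44 ± 0.14 and 0.55 ± 0.14 (DESeq2 adjusted p = 0.0134 and 0.00136). The first of these was lost without SJ2 (0.117), SJ3 (0.0983), SJ8 (0.0532) or SJ10 (0.078), with edgeR (adjusted p = 0.0543) and with library totals as scaling (DESeq2 adjusted p = 0.0502). C1qb and C1qc were called with NBT3L TCM, at 0.41 ± 0.10 (DESeq2 adjusted p = 4.89e-04) and 0.59 ± 0.14 (2.74e-04). With NB9464 TCM they gave 0.16 ± 0.10 (DESeq2 adjusted p = 0.273) and 0.30 ± 0.14 (0.112), and C1qc was called there without SJ1 (0.0347) or SJ7, where its interaction was 0.51 (6.36e-06). C5ar1 and Cfp were called in neither, apart from C5ar1 with NB9464 TCM without SJ8, at -0.24 (DESeq2 adjusted p = 0.0342).

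Whether R788 acted differently in the 2 TCMs was tested by a further contrast. None of the 8 genes was called by DESeq2 or by edgeR, against 0.706% of all genes with DESeq2, although 3 had an unadjusted p under 0.05. These 3 were C1qb, C1qc and Cfb, with -0.24 ± 0.10, -0.29 ± 0.14 and 0.60 ± 0.24. The C1qc difference was called when only the 4 groups of this contrast were fitted (-0.28, DESeq2 adjusted p = 0.0223).

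The same interactions appear as a TCM difference that depended on R788. Against R788 alone, NB9464 TCM with R788 gave 8 called genes, 4 higher and 4 lower (40.4% of all genes, 20.7% higher and 19.6% lower). NBT3L TCM with R788 gave 7, 3 higher and 4 lower (41.4%, 21.5% higher and 19.9% lower). The C1q genes fell by between 1.70 (C1qb, NBT3L TCM) and 2.19 (C1qa, NBT3L TCM), and C3 rose 3.10-fold and 3.13-fold. Cfb rose by 5.26 ± 0.26 and 5.18 ± 0.26 on the log2 scale. C3ar1 had the opposite sign to that without R788, 0.25 ± 0.07 with NB9464 TCM (DESeq2 adjusted p = 0.002) and 0.15 ± 0.07 with NBT3L TCM (0.0749), which scaling by library totals turned to 0.04 and -0.13. In TPM, C3ar1 was lower with both TCMs, at 268.5 ± 5.10 and 240.4 ± 18.4 (SD) against 299.1 ± 4.96 with R788 alone. Cfp, called higher with NB9464 TCM and R788 by 0.32, also had a lower TPM there, 1307 ± 57.3 against 1387 ± 40.8. The C3ar1 call with NB9464 TCM was lost without SJ9 (DESeq2 adjusted p = 0.0791), and with NBT3L TCM C3ar1 was called without SJ7 (0.0324) or SJ11 (0.0222). C5ar1 was lower by 0.36 ± 0.07 (DESeq2 adjusted p = 3.22e-06) and 0.26 ± 0.07 (0.00141), the second lost without SJ7, at -0.15 (0.0501), or SJ11 (0.0631).

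Averaged over the 3 media, R788 gave 7 called genes, 4 higher and 3 lower, against 29.6% of all genes (13.4% higher and 16.2% lower). The 3 C1q genes and C3 were higher, by 0.20 to 0.37 on the log2 scale, Cfb, C3ar1 and C5ar1 were lower, by 0.46 to 0.50, and Cfp gave 0.03 (DESeq2 adjusted p = 0.474). These averages cover unlike effects in the 3 media. Without TCM, the C1q genes gave only 0.01 to 0.05 and Cfb gave -1.402. In NB9464 and NBT3L TCM, Cfb gave 0.32 and -0.28, neither called.

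Scaling by library totals in place of size factors, tried after the data had been seen, moved the median of all genes. The shift was -0.12 and -0.23 (log2) for NB9464 and NBT3L TCM against NS, -0.20 and -0.28 for the same against R788, and 0.10 between the 2 TCMs. Calls that were higher made up 50.5% with NB9464 TCM and 51.1% with NBT3L TCM by size factors, and 35.4% and 26.8% by totals. For R788 against NS they were 43.5% and 55.5%, between the TCMs 39.2% and 71.9%, and against R788 alone 51.4% and 30.5% for NB9464 TCM and 51.9% and 26.5% for NBT3L TCM. Between the TCMs with R788 the split was 36.7% and 58.3%, for the interactions 49.9% and 31.4% (NB9464), 51.1% and 40.1% (NBT3L) and 46 of 115 calls and 25.3% (between the TCMs). All calls of the 8 genes against NS kept their direction under totals, with C1qa at -2.59 and -2.97, C3 at 1.98 and 1.86, and C5ar1 at -0.35 and -0.41 with NB9464 and NBT3L TCM. For the TCMs with R788 against R788 alone, C3ar1 moved to 0.04 with NB9464 TCM and -0.13 with NBT3L TCM, neither called (DESeq2 adjusted p = 0.738 and 0.12). Cfp with NB9464 TCM and R788 moved to 0.11 and was no longer called (DESeq2 adjusted p = 0.0629), and Cfp with NBT3L TCM and R788 moved to 0.33. Between the TCMs without R788, Cfp moved to -0.13 (DESeq2 adjusted p = 0.0433), Cfb moved to -0.43 and lost its call (0.0792), and C1qb, at 0.29 (2.84e-04), and C1qc, at 0.35 (0.00328), gained one. C3ar1 was -0.66 with NBT3L TCM against NS, and C5ar1 -0.58 and -0.54 with NB9464 and NBT3L TCM against R788 alone, all called.

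Of 46 other complement genes, listed by their known role, 27 were tested. Of these, 11 were called with NB9464 TCM and 11 with NBT3L TCM, 6 higher and 5 lower in each, where 34.1% and 35.3% of all genes tested were called. R788 alone gave 3 higher and 2 lower (26.6% of all genes called), and R788 in either TCM 1 higher and 2 lower (14.5% in NB9464 TCM and 12.6% in NBT3L TCM). Beside these shares, the counts over the 27 say nothing particular to the list. The median log2 fold change of the 27 was 0.27 with NB9464 TCM and 0.07 with NBT3L TCM, against 0.02 and 0.00 over all genes. Leaving out 1 library changed the R788 counts: without TCM the 5 called became 2 without SJ2, 3 without SJ1 and 8 without SJ7. In NB9464 TCM the 3 became 1 without SJ2, SJ3 or SJ4, and in NBT3L TCM 1 without SJ5 or SJ12. Among those not tested for low counts were the lectins Mbl1 and Mbl2 and the terminal components C8a and C8b, each at 0 counts in all 12 libraries, and C5 itself (Hc), with a highest group mean of 7.27 normalized counts.

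The genes described next each had a mean of at least 100 normalized counts in some group and a called change of at least 1 on the log2 scale. Cd55, a membrane protein that speeds the decay of C3 convertases, had 85.5 and 92.0 normalized counts in NS and 927 and 1027 in NB9464 TCM. It rose by 3.46 ± 0.21 (DESeq2 adjusted p = 2.60e-58), and with NBT3L TCM by 2.29 ± 0.22 (5.59e-25). With R788 in NBT3L TCM it rose by 0.66 ± 0.19 (DESeq2 adjusted p = 0.00646), lost without SJ5 (0.18) or SJ12 (0.26), and R788 alone gave 0.55 ± 0.23 (0.0488), lost in 11 of 12 fits that left out 1 library (up to 0.202, without SJ1). The antisense gene Gm16083 shares 102 exonic bases with Cd55. C1s1, a protease of the C1 complex, had 8.53 and 24.4 in NS and 114 and 142 in NB9464 TCM. It rose by 2.96 ± 0.47 and 3.05 ± 0.48 (DESeq2 adjusted p = 3.93e-09 and 1.14e-09), and shares 576 exonic bases with an antisense gene, Gm16567. C1s1 rose by 1.47 ± 0.49 with R788 alone (DESeq2 adjusted p = 0.0109), at 2.42 without SJ1 and 0.91 without SJ2, where it was not called (0.26).

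Fcna, a ficolin that starts the lectin pathway, fell with C1q: it had 559 and 588 normalized counts in NS and between 70.8 and 147 in the 4 libraries with TCM alone. The log2 fold changes were -2.63 ± 0.29 and -2.23 ± 0.29 (DESeq2 adjusted p = 4.72e-18 and 2.43e-13), and 90 of its exonic bases are shared with the antisense gene Fcnaos. Serping1, the C1 inhibitor, had 9.48 and 18.8 in NS and 60.4 and 106 in NB9464 TCM, and rose by 2.56 ± 0.70 (DESeq2 adjusted p = 0.00108), lost without SJ3 (0.056). In NBT3L TCM, Serping1 had 24.75 and 43.28 normalized counts and was not called. C5ar2, the second C5a receptor, was not called with NB9464 TCM. It had 133 and 176 in NS and 47.0 and 47.6 in NBT3L TCM, where it fell by 1.71 ± 0.58 (DESeq2 adjusted p = 0.0115). It shares 127 exonic bases with Gm26473 on the same strand, and its call was lost without SJ2 (0.122), SJ5 (0.0661) or SJ6 (0.0626). Itgax, the alpha chain of complement receptor CR4, had 378 and 388 in NS and 152 to 206 in TCM alone, and fell by 1.10 ± 0.35 and 1.06 ± 0.35 (DESeq2 adjusted p = 0.00676 and 0.00901). Itgax gave -1.007 ± 0.349 with R788 alone (DESeq2 adjusted p = 0.0165). Its calls were lost without SJ1 in all 3 comparisons (0.066, 0.0766 and 0.106) and without SJ2 (0.0537, 0.0601 and 0.101). They were also lost without SJ3 (0.11) with NB9464 TCM, SJ5 (0.104) with NBT3L TCM, and SJ7 (0.0544) or SJ8 (0.0669) with R788.

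**Figure D5:**
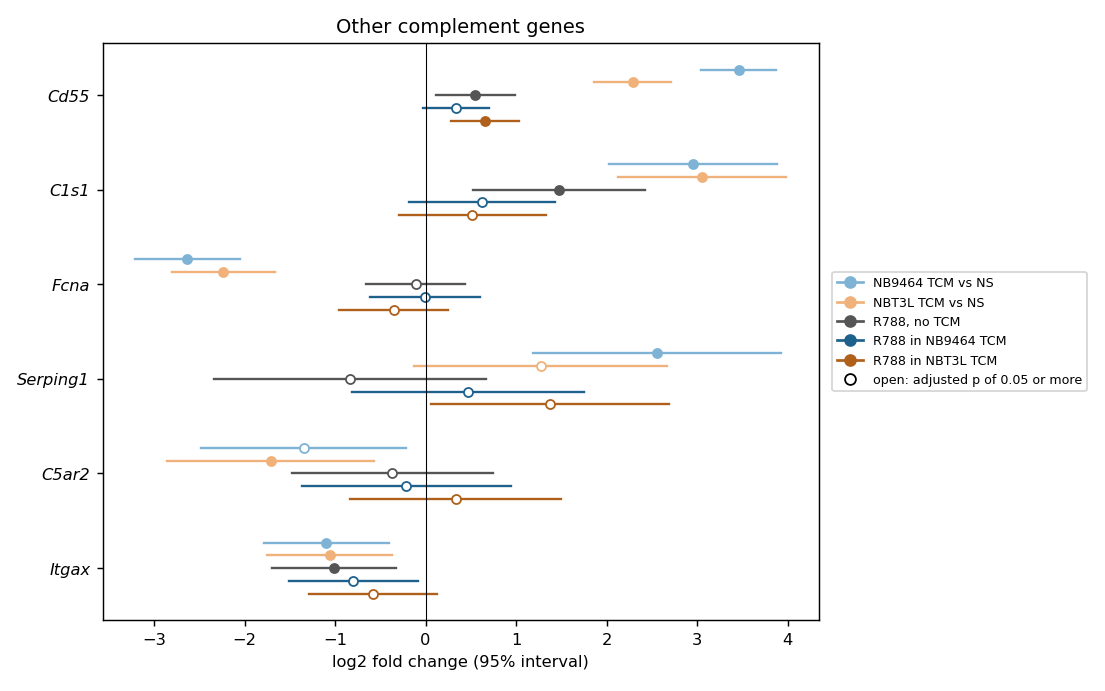
DESeq2 log2 fold changes of 6 other complement genes with a called change of at least 1, for both TCMs over NS and for R788 in each medium, with 95% intervals. Filled points have an adjusted p under 0.05. Cd55, C1s1 and Serping1 lie to the right and Fcna, C5ar2 and Itgax to the left for TCM. Of the TCM changes, that of Serping1 was called only with NB9464 TCM and that of C5ar2 only with NBT3L TCM.

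Across the 12 libraries, which fall into groups with and without TCM, the 3 C1q genes had Pearson correlations of 0.9925 to 0.9961 on log2(normalized count + 1). C1q and C3 had between -0.95 and -0.93, and C3ar1 and C5ar1 had 0.76. These describe the same group differences as above and are no independent evidence. Over 10707 genes averaging 100 or more normalized counts, those most like the mean of the C1q genes were Rgs10, a regulator of G protein signaling (r = 0.99), Zfp36l2, an RNA-binding protein (0.99), and Nt5dc2 (0.99). Those most like C3 were Abcc5, an efflux transporter (0.999), Irak3, an inhibitor of Toll-like receptor signaling (0.9985), and the copper transporter Slc31a2 (0.9976). Irak3 had mean normalized counts of 3108 in NS, 16370 and 16770 in the 2 TCMs, and 5239 with R788 alone, so it too was higher with R788. Those most like Cfb were Cct3, a chaperonin subunit (0.9976), Milr1 (0.9964) and Slamf7 (0.9959). Those most like Cfp were P4ha2, a collagen prolyl hydroxylase (0.99), Abracl (0.99) and Hif1a, an oxygen-regulated transcription factor (0.98). Hif1a had mean normalized counts of 5749 without treatment, 10410 with NB9464 TCM and 15280 with NBT3L TCM. C3ar1 was matched less closely, by Cse1l (0.96), Frmd6 (0.96) and Uchl5 (0.95). Those most like C5ar1 were the interferon-inducible genes Irgm1 (0.98) and Ifitm3 (0.98) and the elastase Mmp12 (0.98). Mmp12 had 23220 in NS, 5748 with R788 alone, and 1693 and 2002 with R788 in the 2 TCMs.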

How the data were processed

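RNA-seq of mouse BMDMs was analysed in 6 groups of 2 libraries, grouped by the labels. The values were unnormalized whole-number counts per gene as deposited by the authors, in 1 table with a length for each gene. Per the labels, the submitters' processing notes name STAR 2.6.1d, Salmon 1.4.0, SAMtools 1.9, Picard 2.26 and MultiQC 1.11 with mm10. The program that wrote the counts, its strand setting and its treatment of multimapping reads are not given in the sources used here. Even values made up 65.2% to 67.9% of counts from 1 to 40, as would be seen if the mates of a pair were each counted, so counts divided by 2 were tried. Sequencing was paired-end by the labels but single-read by the study's methods.

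Symbols and positions came from GENCODE M21 (GRCm38), which held 54079 of 54232 IDs. Gene lengths equalled its merged exon lengths for 97.3% of them. Genes reaching 10 counts in 2 or more libraries entered the fit by DESeq2 1.42.0 in R 4.3.3: median-of-ratios size factors, 1 model of 6 group means, two-sided Wald tests, unshrunken log2 fold changes, with p values adjusted per contrast by Benjamini-Hochberg. Calls needed an adjusted p under 0.05. TPM were computed from counts and gene lengths. The 95% intervals are from the Wald standard errors, and SD are between 2 libraries. No exact permutation test of 2 libraries against 2 can reach that threshold, so the p values rest on the variance model.

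The members, the list of other complement genes, the markers and the motifs were chosen with earlier results of these data known. Other complement genes were named if their highest group mean reached 100 normalized counts and a called log2 change reached 1, and the 3 genes most like each member by Pearson correlation were named. 1 result among the other complement genes is not reported here, although the counts over that list include it. The results were recomputed by edgeR 4.0.16 (quasi-likelihood, TMM), by DESeq2 scaled with TMM, without the count filter or with a mean count of 50 as the filter, and with halved counts, only the libraries compared, leaving out each library, and library totals as scaling. The test script was tested on simulated data. No replicate pair had identical counts. Promoter sequences for 2 of the 8 genes, and proteins, were not used here.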

Additional observations from a re-analysis of the deposited data

Results flagged for a closer look

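The results below stood out because the difference with R788 itself differed between cells with and without TCM, by the DESeq2 interaction test over all genes. The values are log2 differences between the R788 effect in TCM and that without TCM, and all tests compared 2 libraries per group.

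For C3ar1, the values were 0.7754 with NB9464 TCM and 0.583 with NBT3L TCM. The receptor for C3a was lower with R788 in all 3 media and was called in 2 of them, without TCM and in NBT3L TCM. In NB9464 TCM it was called under some alternatives, among them library totals as scaling and only the libraries compared. For C3, the values were -0.4737 and -0.4468, since the rise with R788 was larger on the log2 scale without TCM than in it. In counts the rises were of similar size. Mean normalized counts went from 10350 to 16100 without TCM, 44510 to 49830 in NB9464 TCM and 44130 to 50340 in NBT3L TCM. For Cfb, they were 1.7208 and 1.1188, and rest on 23 to 60 raw counts in the libraries without TCM.

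For the C1q genes, the values were 0.4362 (C1qa, NB9464 TCM), 0.5456 (C1qa, NBT3L TCM), 0.4086 (C1qb, NBT3L TCM) and 0.5917 (C1qc, NBT3L TCM). In each, R788 made no called difference without TCM. Library SJ8, one of the 2 R788 libraries without TCM, had the fewest detected genes, and its pair spread most. Without SJ8, C1qa with NB9464 TCM gave 0.37 and was not called (DESeq2 adjusted p = 0.0532). The other C1q results in this paragraph were still called without SJ8.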

How the results depend on the processing

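Of 104 pairs of gene and contrast for the 8 genes, 67 kept direction and side of the threshold under every alternative. TMM scaling, no count filter and a mean of at least 50 counts changed none, halved counts changed 1 and edgeR 3. Where a call changed, the cause was not tested. No paired analysis was possible because the library numbers are unique and the groups share none. The count of members called between the TCMs, 3, ranged from 1 to 5 when 1 library was left out, and the count for R788 in NB9464 against NBT3L TCM, 0, became 1 with only the libraries compared.

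Log2 values near 0 changed sign when 1 library was left out, none of them called by the full fit. For R788 against NS, the ranges were -0.0262 to 0.1151 (C1qa), -0.0659 to 0.083 (C1qb), -0.1904 to 0.1845 (C1qc) and -0.025 to 0.0778 (Cfp). Between the TCMs they were -0.0154 to 0.037 (C3) and -0.0945 to 0.0031 (C5ar1), and between the TCMs with R788 -0.0309 to 0.0005 (C3) and -0.0027 to 0.1397 (Cfb). Cfp gave -0.0378 to 0.0441 for R788 in NB9464 TCM, and its interactions were -0.0722 to 0.0308 (NB9464) and -0.0151 to 0.0868 (NBT3L). The C5ar1 interaction with NBT3L TCM gave -0.1797 to 0.0301, and that of C1qa between the TCMs -0.2645 to 0.0326. With only the libraries compared, C3 between the TCMs with R788 was 0.0039.

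With library totals as scaling, the sign changed between the TCMs with R788 for C1qb (0.0052), C1qc (0.0239) and C3 (0.0533), and between the TCMs for C3ar1 (0.0074) and C5ar1 (0.0599). It also changed for the R788 difference of Cfp in NB9464 TCM (-0.0143), for its NBT3L interaction (-0.0154), and for C3ar1 with NBT3L TCM and R788 against R788 (-0.1291). None of these was called. With 2 libraries per group, small differences rest on the shared variance estimate, and the wide R788 pair (SJ7, SJ8) limits contrasts that use it.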
